A study of Mus musculus with 60 samples.

Results

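Rmdn2, the gene of regulator of microtubule dynamics protein 2, gave 3 of the 2799 different circular RNAs (circRNAs) in 5 mouse organs. All 3 lay on chromosome 17, began at base 79957731 of the build GRCm39 and ended at 79966902, 79980002 or 79989111. They are called the short circle (17:79957731|79966902), the middle circle (17:79957731|79980002) and the long circle (17:79957731|79989111) below. They were taken as every entry that starts at that base or ends at any of these ends, which gave 7 of 4724 entries in the 5 tables. No other entry overlapped the span. The locus was chosen by the liver fold change and adjusted p of its long circle. This was the liver circRNA with an adjusted p below 0.05 in the authors' DESeq2 genotype comparison. The liver fold changes are therefore described here and not tested again.

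CircRNAs are made when the splicing machinery joins the end of a downstream exon back to the start of an upstream exon. The closed ring has no free end, so it resists the exonuclease RNase R, and it is recognised by reads across the back-splice junction. A gene can yield several rings when the same upstream exon is joined to different downstream exons.

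The study compared Ftsj1-deficient mice, labelled Ftsj1_DF, with wild-type mice, labelled WT. Ftsj1 is an X-linked gene for an enzyme that methylates transfer RNA, and the labels do not say how it was disrupted. All 6 mice were male, 4 months old and otherwise untreated, with 3 per genotype, and each gave brain, heart, kidney, liver and spleen. The labels name 4 mice as brothers, 2 of them wild-type, and the other 2 as brothers, 1 of them wild-type. Whole-tissue RNA was depleted of ribosomal RNA, polyadenylated and digested with RNase R, and each of the 30 libraries was sequenced in 2 batches, giving 60 samples.

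The values are the authors' own comparison in each organ: a mean normalized count over the libraries of the organ, a log2 fold change and the standard error (SE) of it, a p-value and an adjusted p. The groups behind the fold change are read as the genotypes. The numerator genotype was not given in the sources used here, so signs are as deposited and give no direction between the genotypes. Depth per library is unknown and values per mouse were not analysed here, so the SE is the only error and a mean has none. The circRNA tables hold no marker genes with which to check the tissue labels. None of the 31 X-linked circRNAs had the exon spacing of Ftsj1, so the targeted gene could not be used to check the labels or the sign.

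The host gene was found from the distances between the ends. The deposited coordinates are on GRCm39, the annotation used was GENCODE M21 on GRCm38, and no coordinate was carried between them. Among 55343 annotated genes with 379555 exon starts, 1 gene had an exon start from which all 3 distances led exactly to exon ends. That gene was Rmdn2. No other gene matched 2 of the 3 distances, and 188 genes matched 1. Shifting the start by 1 or 2 bases gave no gene with 2 or more.

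In the annotated Rmdn2 transcript that holds these exons, which has 11 in all, the shared start was the first base of exon 3. The short circle ended with exon 5, the middle circle with exon 10 and the long circle with exon 11. These circles spanned 9172, 22272 and 31381 bases of the genome. If every annotated exon between the ends is kept and every intron removed, the rings hold 3 exons and 339 bases, 8 exons and 727 bases, and 9 exons and 777 bases. The long circle thus spanned 3.42 times as much genome as the short one but had 2.29 times its spliced length. All of these exons were coding in full.

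The end of the long circle set it apart from the other two. In that transcript exon 11 is the last exon and runs for 520 bases. The long circle stopped after its first 50 bases, at a splice donor that 2 annotated transcripts use where exon 11 is followed by another last exon. If every annotated exon between the ends is kept, the long ring therefore differs from the middle ring by these 50 bases only, and from the short ring by 438.

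**Figure D1:**
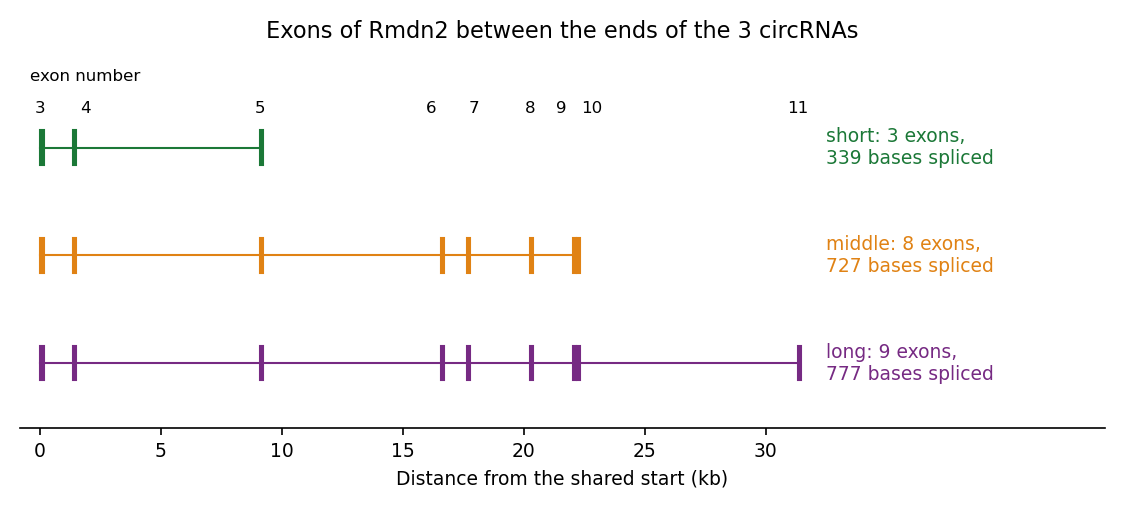
Map of the 3 circles, with distance from the shared start in kb on the horizontal axis and each exon as a box (boxes under 0.12 kb are drawn 0.12 kb wide). All begin with exon 3, and they end with exon 5 (short), exon 10 (middle) and the 50-base form of exon 11 (long).

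The back-splice junctions are shown because they are what tells the 3 circles apart. They were read from the GENCODE M21 transcripts (GRCm38), plus strand, 5′ to 3′. The last 20 bases of the downstream exon are in lower case, and the first 20 bases of exon 3 are in capitals.
Short circle, exon 5 to exon 3: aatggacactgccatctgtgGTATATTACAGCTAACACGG
Middle circle, exon 10 to exon 3: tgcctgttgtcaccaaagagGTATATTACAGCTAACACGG
Long circle, exon 11 to exon 3: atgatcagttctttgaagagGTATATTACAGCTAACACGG

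The capitals are the same in all 3 junctions, so a read identifies a circle only by its bases before them. The middle and long circles had the same last 5 bases before the junction, while the short circle shared 1 base with either.

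The annotated exons from the start to the end of the short circle, and the last exons of the longer ones, follow from the same transcripts. Capitals mark the 20 bases that take part in a junction above.
Exon 3, first of all 3 circles: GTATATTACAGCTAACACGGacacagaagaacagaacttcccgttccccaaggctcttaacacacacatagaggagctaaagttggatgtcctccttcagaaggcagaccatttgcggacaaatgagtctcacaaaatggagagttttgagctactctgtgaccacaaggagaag
Exon 4, inside all 3 circles: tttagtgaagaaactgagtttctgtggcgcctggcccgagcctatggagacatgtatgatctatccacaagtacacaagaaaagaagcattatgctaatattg
Exon 5, last of the short circle: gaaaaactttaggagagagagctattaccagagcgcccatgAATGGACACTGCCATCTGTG
Exon 10, last of the middle circle: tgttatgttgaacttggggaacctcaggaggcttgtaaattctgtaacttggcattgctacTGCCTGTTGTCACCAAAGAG
Exon 11, first 50 bases, last of the long circle: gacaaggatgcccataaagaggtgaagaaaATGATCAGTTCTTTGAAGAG

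The first question was where each circle was listed and at what level. The short circle stood in 4 of the authors' deposited tables, all but spleen. In liver it ranked 4th of 900 by abundance, at a mean normalized count of 386.2 in the authors' deposited table. That was 44.1 times the median circRNA of the liver table, and 2.04% of the summed mean of that table. Its mean in brain was 6.20 by the authors' deposited table, rank 597 of 1856, the lowest standing of the 4 organs. The authors' deposited heart table gave it 5.74, rank 179 of 664, and in kidney it had 6.70, rank 263 of 996. Outside liver it was thus between 1.60 (brain) and 2.07 (heart) times the median of its table. Each table was normalized by itself, so these levels are read against their own table and not against each other.

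The short circle was highest in liver also on a common set of circRNAs. Of the circRNAs, 239 were listed in all 4 organs that list it. The short circle took 3.81% of the summed mean of this set in liver, 0.109% in brain, 0.234% in heart and 0.217% in kidney. On the log2 scale its liver share exceeded its mean share in the other 3 organs by 4.43, where the median of the set was -0.26. Only 1 of the 239 had a larger excess. In bulk tissue more circles per cell and more cells that make the circle cannot be told apart.

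The circRNAs nearest in pattern to the short circle were then listed. Among 106 circRNAs listed in these 4 organs and no other, likeness was the mean absolute difference of abundance percentiles. The closest was chromosome 9, 72632299 to 72633812, at 8.80 percentile points. It was followed by chromosome 2, 168547043 to 168552896, at 9.48, and chromosome 19, 56563190 to 56564716, at 9.87. Their liver percentiles were 77.6, 92.4 and 90.1, all below the 99.7 of the short circle.

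The longer circles were listed less widely. The middle circle stood in the authors' deposited liver table only, with a mean normalized count of 26.3 and rank 158. The authors' deposited liver table gave the long circle 17.03, rank 259. Its mean by the authors' deposited brain table was 2.58, rank 1243 of 1856 and 0.666 times the median circRNA. Each table was filtered by the authors on low expression, and a circle without an entry may still be made in that organ.

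The isoform shares within an organ were then compared. In liver the short circle made up 89.9% of the summed mean of the 3 circles, the middle circle 6.13% and the long circle 3.96%. There were 14.7 short circles per middle circle and 22.7 per long circle, by the deposited means. In brain the short circle made up 70.6% and the long circle 29.4%, or 2.40 short circles per long one. The long circle was thus 41.6% of the short circle's level in brain and 4.41% in liver. A deposited mean has no error of its own here, so this difference between organs was not tested, and the brain shares rest on means of 6.20 and 2.58. Whether reads outside the junction were counted, which would favour longer rings, was not given in the sources used here.

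In heart and kidney the short circle was the only entry of the locus. At the liver ratio, the long circle would have a mean of 0.253 in heart and 0.295 in kidney. These are below the smallest means in the authors' deposited tables, 0.623 in heart and 0.693 in kidney. Whether that explains the missing entries was not tested. At the brain ratio it would have 2.39 in heart and 2.79 in kidney, and 41.4% and 42.7% of the entries in those tables have lower means. The limit of the authors' filter was not given in the sources used here. At the liver ratio the middle circle would have a mean of 0.423 in brain, below the smallest mean of 0.455 in the authors' deposited table.

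**Figure D2:**
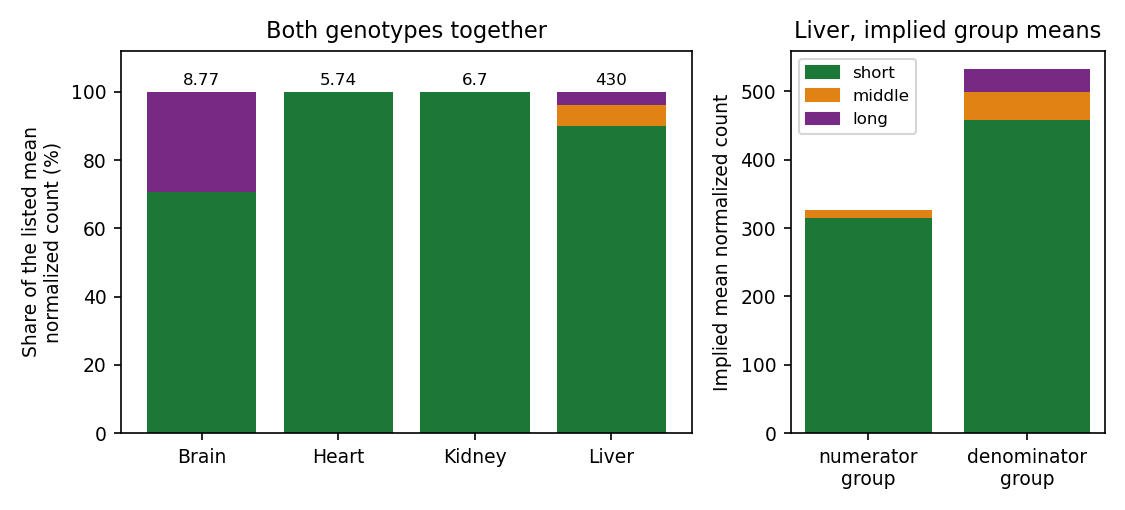
Left, share (%) of each circle in the summed mean normalized count of the locus by organ, both genotypes together, with that sum above each bar. Right, implied mean normalized count of each circle in the numerator and denominator group of the liver comparison, where the longer circles make up 3.70% and 14.0%. The right panel contains the fold change that chose the locus and is a description. There are no error bars because the tables give none for means.

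The liver share of the leading circle was set against all shared starts, Rmdn2 among them. In liver 63 starts were shared by 2 or more circRNAs, and the leading circRNA took a median of 73.4% (range 42.4% to 99.2%). The lead share was higher than at Rmdn2 in 7 of the 63. Of the 9 liver starts with 3 or more circRNAs, Rmdn2 had the highest lead share, 89.9%, where their median was 56.8%. In brain the lead share at Rmdn2, 70.6%, was below the median of 74.5% over 156 starts. The circRNA with the shortest span led at 38 of 63 liver starts (60.3%) and at 79 of 156 brain starts (50.6%), as it did at Rmdn2 in both organs. Among the 9 liver starts with 3 or more circRNAs it led at 2 (22.2%), Rmdn2 among them.

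**Figure D3:**
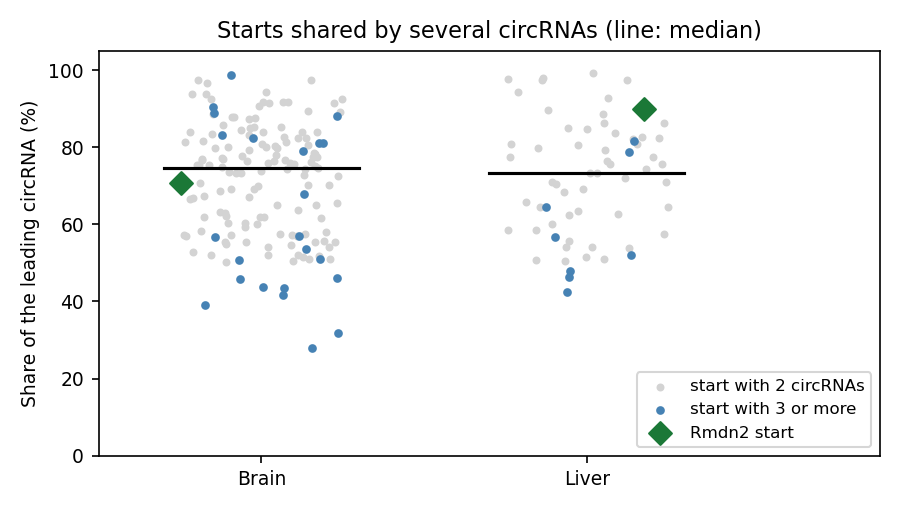
Share (%) of the most abundant circRNA at every start shared by 2 or more circRNAs, in brain and liver, spread sideways for view. The green diamond is Rmdn2, at 70.6% in brain, near the median line, and at 89.9% in liver, above all other starts with 3 or more circRNAs.

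The main question of the study was what differed between the genotypes. For the short circle, none of the 4 organs gave a call. Its log2 fold change in the authors' deposited liver table was -0.54 (SE 0.38, adjusted p = 0.999 in the authors' DESeq2 test). The 95% interval, from the SE and the normal curve, corresponds to a ratio between 0.407 and 1.16. This SE was the second smallest of 900 in the liver table. In heart the authors' deposited table gave 0.13 (SE 0.85), with an interval from -1.53 to 1.79. For kidney the authors' deposited table gave -0.36 (SE 1.45; -3.21 to 2.48). The brain estimate of the authors' deposited table was -1.16 (SE 1.42; -3.94 to 1.63). The 4 intervals all include 0. In brain the interval reaches from a ratio of 0.0652 to 3.09 and in kidney from 0.108 to 5.60, so changes of several-fold either way lie within the error there. With the errors of the organs taken as independent, the intervals of all 6 organ pairs included 0. The widest difference, heart minus brain, was 1.29 (95% interval from -1.95 to 4.53). All organs came from the same 6 mice. In an alternative chosen after seeing the data, with errors fully correlated, 2 of the 6 intervals left out 0 (brain against heart and brain against kidney). That setting takes the difference of the 2 SEs as the error, which is very small where they are alike, as in brain and kidney. The actual correlation is unknown, so a difference between organs is neither shown nor excluded.

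The middle circle, seen in liver, stood at -1.79 on the log2 scale by the authors' deposited table (SE 1.43, adjusted p = 0.999 by the authors' DESeq2). Its interval ran from -4.59 to 1.01. The middle circle minus the short circle was -1.25, with an interval from -4.15 to 1.65. That interval takes the errors as independent, although the circles share libraries.

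The long circle carried the liver call, which also chose the locus. The authors' deposited table put it at -7.11 on the log2 scale (SE 1.69, adjusted p = 0.0154 by the authors' DESeq2). Of the 883 liver circRNAs with a p-value, 587 had an adjusted p and could be called. The long circle was the 1 called, or 0.113% of the 883, and 1 of the 3 circles at this locus. No conclusion rests on that count, since the call chose the locus. Just outside the threshold stood chromosome 5, 66520061 to 66522463, with a mean of 11.6 and adjusted p = 0.061 by DESeq2 in the authors' deposited table. Its log2 fold change there was -6.55, which lay on the line tied to the mean that is described below.

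The size of this fold change is tied to the mean. It exceeded log2 of the mean by 3.02 in absolute value, and 135 liver circRNAs, all negative, lay on that line within 2.89 to 3.02. Such a line arises when the normalized counts lie almost wholly in 1 group, and the counts were not analysed here. An excess above 2.5, the cut used for the line, was found in 135 of 900 liver entries. Elsewhere it was found, whatever the sign, in 22 of 1856 (brain), 7 of 664 (heart), 32 of 996 (kidney) and 3 of 308 (spleen). The long circle had the highest mean of the 135, 17.03 against 11.7 for the next, and with it the lowest fold change of the liver table. The short and middle circles were far from the line, at -8.05 and -2.93 on the same measure. Of 193 other liver circRNAs with a mean within 1.5 times that of the long circle, 2 lay on the line. The median log2 fold change of these 193 was -0.13 in the authors' deposited table.

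**Figure D4:**
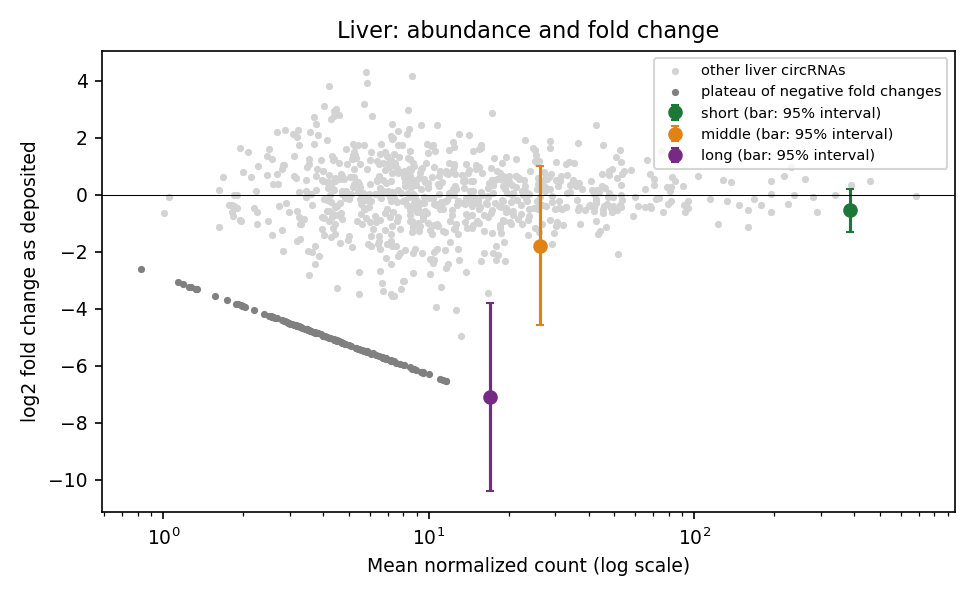
Log2 fold change as deposited against mean normalized count (log scale) for the 900 circRNAs of the liver table, with the 3 circles in colour and their 95% intervals as bars. The long circle sits at the right-hand end of the line of 135 negative fold changes in dark grey, and the short circle sits near 0 at the right.

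Short and long circles were compared directly. In liver the long circle minus the short circle was -6.56 on the log2 scale (95% interval from -9.96 to -3.16, errors taken as independent). The middle and long circles, which by the annotated exons differ by 50 bases of exon 11, stood 5.32 apart (95% interval from 0.98 to 9.65). Both differences contain the fold change that chose the locus, so they are descriptions. That fold change is tied to the mean, as described above, so the sizes of both differences are tied to it too. In brain, where the locus was not chosen, the authors' deposited table gave the long circle -0.77 on the log2 scale (SE 1.95, adjusted p = 1.00 by the authors' DESeq2). There the long circle minus the short circle was 0.39, with an interval from -4.34 to 5.11. That brain interval includes differences of several log2 units either way, and it overlaps the liver interval. The liver minus brain estimate of the long circle was -6.34 (interval from -11.39 to -1.28), again with the chosen liver value in it. This interval takes the errors as independent, although both organs came from the same mice. It is a description and shows no difference between the organs.

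**Figure D5:**
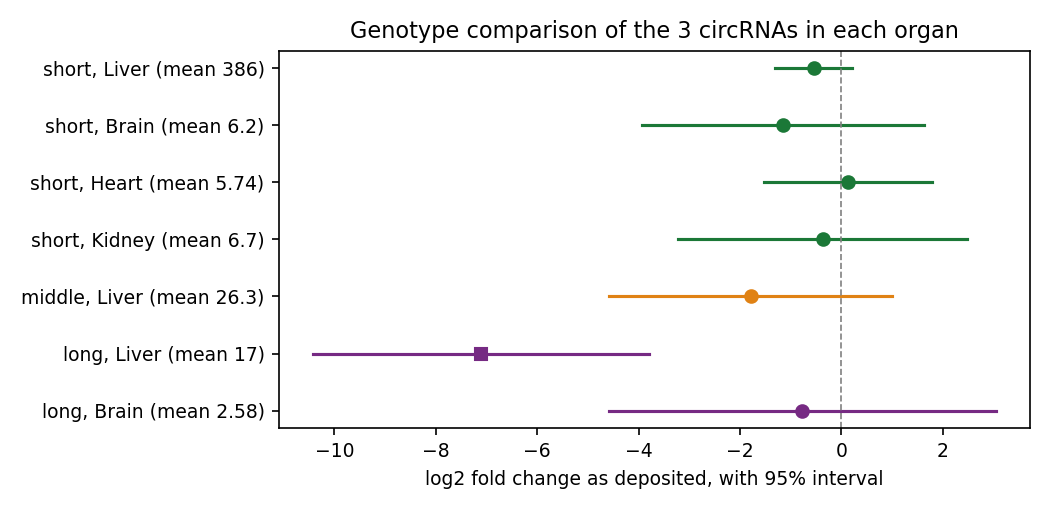
Log2 fold change as deposited, with its 95% interval, for each circle and organ, and the mean normalized count in brackets. The square is the estimate tied to the mean, and it is the only 1 of 7 whose interval does not include 0.

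Of the 7 estimates at this locus 6 were negative, the exception being the short circle in heart. The 6 include the long circle in liver, whose fold change chose the locus. All 7 come from the same 6 mice and are not separate observations, so no conclusion rests on this count. Negative fold changes made up 57.3% of all liver entries and 55.0% of all brain entries in the authors' deposited tables. In the heart and kidney tables they made up 43.98% and 42.17%. In liver 80 of 883 tests (9.06%) had an unadjusted p below 0.05 in the authors' DESeq2 test. Of these 80 fold changes, 76 were negative and 4 positive, so low p-values in that table went mostly with the sign of the long circle. Outside liver none of 4 estimates had an unadjusted p below 0.05 in the authors' DESeq2 test, and none was called. The same tables called 0% of their tests in brain, heart and kidney, and had an unadjusted p below 0.05 in 2.05%, 2.86% and 1.82% of them, so 0 of 4 is near the background.

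The fold changes were also expressed as the 2 group means that average to the deposited mean and have the deposited ratio. In liver the short circle came to 314.2 in the numerator group and 458.2 in the denominator group. The middle circle came to 11.8 and 40.9. For the long circle the values were 0.245 and 33.8, the first of which is set by the line above and may stand for 0. The longer circles together were thus 12.1 against 74.7, or 3.70% and 14.0% of the locus. With the long circle at 0 the first share was 3.62%. The sum over the locus was 326.3 against 532.9, a log2 ratio of -0.71. In brain the same arithmetic gave 33.2% and 27.5% for the long circle. These shares restate the deposited fold changes and have no error of their own. They hold only if the deposited mean is the plain average over equal groups. The liver shares contain the fold change of the long circle that chose the locus, so they are descriptions.

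All shared starts of the liver table, Rmdn2 among them, give the setting for these values. At the 63 shared starts, 73 circRNAs were not the leading one, and 45 of them (61.6%) had a lower log2 fold change than their leader. The median of these differences was -0.27, and 20 of the 73 lay on the line of fold changes tied to the mean. At Rmdn2 both longer circles were lower than their leader, and 1 of 73 differences, at another start, was lower than the -6.56 of the long circle. That value contains the fold change that chose the locus, so its low place was set by the choice and is a description. In brain 92 of 185 such circRNAs (49.7%) were lower than their leader, with a median difference of 0.01. The part of abundance in these differences was not tested.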

How the data were processed

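The files are 5 tables of the authors' comparison, 1 per organ. The submitters' processing notes list BWA 0.7.17-r1188, DESeq2 and the build GRCm39 without saying what each served for. The circRNA caller, counting, filter limit, model and handling of the 2 batches were not given in the sources used here. Each row holds, per the file headers, a mean normalized count (an abundance signal), a log2 fold change, its SE and the Wald statistic (both kept as a score), a p-value and an adjusted p-value. Rows were called at adjusted p below 0.05. Replicates are 3 mice per genotype. The SEs are too small if both runs of a library counted as samples in that fit.

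Intervals, shares, implied group means and shared starts were computed with Python 3.11.15, numpy 2.4.6 and pandas 2.3.3, and checked on simulated data. The tests took the deposited p-values, because counts per library were not analysed here. Circles were named by the rule that finds them, the next liver row by adjusted p and the 3 nearest abundance patterns. RefSeq tables at hand are on GRCm38, so no sequence was read by coordinates. The locus, rules and comparisons were chosen with earlier results of these data known.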

Additional observations from a re-analysis of the deposited data

How the results depend on the processing

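Isoform shares were the same when the total was taken over the 3 circles, over all entries of the span or with ends matched within 5 bases, since all find the same entries. The liver p of the long circle, which chose the locus, came to an adjusted p of 0.0232 with Benjamini-Hochberg adjustment of the authors' DESeq2 p-values over all 883 liver tests, and to 0.0173 or 0.0102 over those with a mean of at least 5 or 10, given as a description. No circle was called in brain, heart or kidney at an adjusted p below 0.1 or under the other adjustments; with a mean of at least 10 no circle was left there. Joining the middle and long circle by inverse variance moved the liver difference from the short circle from -6.56 to -3.46 (interval from -5.73 to -1.19). This averages in the uncalled middle circle. It still contains the fold change that chose the locus and is tied to the mean, so it is a description. The middle circle alone minus the short circle was -1.25 (interval from -4.15 to 1.65). With errors fully correlated, the brain difference of 0.39 had an interval from -0.65 to 1.42. With every fold change raised by 1 SE, the implied brain share of the long circle was 34.6% in the numerator and 21.9% in the denominator group. Lowered by 1 SE, it was 27.6% and 29.7%, which turns the order round. The implied liver share of the longer circles in the numerator group was 6.13% and 1.91% in these settings, against 3.70%, and 13.4% and 13.9% in the denominator group. These liver shares contain the fold change that chose the locus, so they are descriptions. No paired analysis was possible because the tables hold no value per mouse, and for the same reason no mouse could be left out in turn.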

Other observations

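The rings differed in how they keep the reading frame of Rmdn2. The short ring (339 bases) and the long ring (777 bases) are multiples of 3, and the middle ring (727 bases) leaves a remainder of 1. Read once around in the frame of the gene, across the back-splice junction, the short ring held 113 codons and the long ring 259, with no stop codon in either. In the middle ring the frame changes at the junction, and the first stop codon came after 246 codons, shortly past the 242 codons that precede the junction. These are properties of the annotated exons and say nothing of whether a ring is translated. The GC content of the rings was 44.8%, 42.5% and 42.3% for the short, middle and long ring.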
